A study of Mus musculus with 9 samples.

Results

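The nuclear-encoded subunits of the mitochondrial respiratory chain and ATP synthase were followed in mouse 4T1 cells given a copper porphyrin material with or without gold. Members were the protein-coding rows of the deposited gene table whose symbols name a subunit of complexes I to V (Nduf subunits without the Ndufaf assembly factors, Sdha to Sdhd, Uqcr, Cox4 to Cox8, and Atp5), which gave 86 of 54532 rows. Of these, 38 are for complex I, 4 for complex II, 8 for complex III, 18 for complex IV and 18 for complex V. They carry 85 symbols, since a second Atp5o row of 530 nt had no read in any library. The 4T1 line is a mouse mammary carcinoma line, and its cells were kept in high-glucose DMEM with 10% FBS. The 3 groups of 3 libraries were cells in medium under normal culture (Control), cells given Cu-TCPP(Fe)-PEG, labelled as consuming glutathione (Cu_TCPP), and cells given Au/Cu-TCPP(Fe)-PEG, labelled as also acting like a glucose oxidase (Au_TCPP). Treatment lasted 24 h, and no dose is stated in the labels. The labels do not state whether replicates came from separate cultures. The p-values therefore refer to the spread among these libraries alone, and that spread may be technical.

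Complexes I to IV pass electrons from NADH and succinate to oxygen, complexes I, III and IV pump protons, and complex V lets the protons back through a rotor to make ATP. Most subunits are encoded in the nucleus and join a few that are encoded in mitochondrial DNA, and complex II is made of nuclear-encoded subunits alone. In tumour cells the chain works beside glycolysis, and many of its nuclear genes share promoter elements for NRF1, GABP (an ETS factor), YY1 and SP1.

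Total counts lay between 15477324 and 17494776 per library, and 13915 genes had enough counts to be tested, among them 79 of the 86 members (37, 4, 8, 13 and 17 of complexes I to V). Levels are given as CPM, counts scaled by library size and edgeR's TMM factors. Where genes are compared with each other, the deposited FPKM is used, which also divides by gene length. The TMM factors were 1.112 to 1.119 in Control, 1.068 to 1.088 in Cu_TCPP and 0.793 to 0.8885 in Au_TCPP. With library totals alone as the scale, the median log2 fold change of all genes tested moved from -0.01 to -0.43 for Au_TCPP against Control, so library totals alone are given beside the TMM scale where they change a count or a call named for this group, and values without a named scale are on the TMM scale. Changes are log2 fold changes ± SE over 3 libraries per group from edgeR's quasi-likelihood test, with p adjusted by Benjamini-Hochberg over all genes tested. The mean length of a counted gene was 5688 ± 61.6 nt in Control, 5649.9 ± 62.4 nt in Cu_TCPP and 4607 ± 60.2 nt in Au_TCPP (SD, n = 3). Of 9 epithelial markers 7 were tested, and on the TMM scale 7 rose in Au_TCPP against Control, while with library totals alone 4 rose and 1 fell. With Cu_TCPP 1 rose and 4 fell on both scales. The summed CPM of the 9 was 2949 to 3208, 2856 to 3193 and 4494 to 5397 in Control, Cu_TCPP and Au_TCPP. The summed CPM of 10 macrophage markers, with Adgre1, C1qa and C1qb at 0, was 28.3 to 31.9, 15.99 to 20.3 and 61.4 to 77.4, most of it Cd68 in Au_TCPP (55.5, 75.2 and 53.3 CPM). Mrc1, the other macrophage marker tested, read 2.501, 1.94 and 2.303 CPM in Control, 6.24, 5.26 and 6.27 CPM in Cu_TCPP and 8.66, 1.82 and 7.81 CPM in Au_TCPP (1.39 ± 0.41, adjusted p = 0.0161, and 1.43 ± 0.41, adjusted p = 0.00814). The sum of 7 fibroblast markers, with Pdgfrb and Lum at 0, was 35.2 to 40.7, 16.3 to 19.7 and 26.8 to 31.8, and that of 5 endothelial markers was at most 0.789. The part of these markers in the results was not tested, and in bulk RNA fewer cells of a type and less RNA per cell cannot be told apart.

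In Control cells the most abundant subunit transcripts per length were those of the ubiquitous cytochrome oxidase subunit Cox8a at 448 ± 34.2 FPKM and of the catalytic beta subunit of ATP synthase, Atp5b, at 441 ± 16.8 FPKM (mean ± SD, n = 3). Cox6a1, another ubiquitous complex IV subunit, followed at 284 ± 8.12 FPKM, Atp5a1, the alpha subunit, at 227 ± 7.37 FPKM and Cox4i1, the largest nuclear-encoded subunit of complex IV, at 205 ± 7.505 FPKM. The libraries of Cox8a and Atp5b overlapped on this scale, so their order is not fixed, whereas those of the other 3 did not overlap with one another or with these. Within complex I the leading transcript was Ndufb9 at 154 ± 12.4 FPKM, within complex II Sdhd at 82.2 ± 2.36 and within complex III Uqcr10 at 123 ± 8.71 FPKM. Isoforms known from other tissues were at or near 0. Cox7b2 and Cox8c had no read in the 9 libraries, Cox6b2 and Cox8b had 1 read each, and Cox4i2 (lung) and Ndufa4l2 (a hypoxia-inducible relative of Ndufa4) stayed under 0.4 CPM in every library. These 6 and the empty Atp5o row were the 7 members left untested. Summed over the members of a complex, deposited FPKM in Control, Cu_TCPP and Au_TCPP were 1428 ± 59.5, 1475 ± 119 and 2231 ± 116 for complex I, and 225 ± 9.03, 236 ± 19.3 and 229 ± 12 for complex II. For complex III they were 594 ± 24.7, 668 ± 54.2 and 814 ± 26.7, for complex IV 1579 ± 59.3, 1583 ± 161 and 2640.4 ± 71.4, and for complex V 1508 ± 45.8, 1666 ± 53.8 and 2046 ± 128 (SD, n = 3). The sums of complexes I, III, IV and V were thus higher in Au_TCPP than in Control by more than the spread of the libraries on this scale, and that of complex II was not. However, deposited FPKM carries a further factor per library over FPKM computed from the counts. It was 0.875 to 0.889 in Control, 0.925 to 0.944 in Cu_TCPP and 1.092 to 1.238 in Au_TCPP. This factor raises the Au_TCPP sums against those of Control, and its part in the differences was not tested. As a share of all raw counts, however, the members held 1.08 ± 0.0275% in Control, 1.08 ± 0.0524% in Cu_TCPP and 1.12 ± 0.0487% in Au_TCPP, which overlap.

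Promoter sequences were looked up because most members moved together with Au_TCPP. RefSeq promoters of build GRCm38.p6, reaching from 250 bases before to 50 bases after the start, were matched for 64 of the 79 members tested (69 windows), and motifs were searched on both strands. The NRF1 motif, GCGCA and GCGC with any 1 base between them, was in 18 of the 69 windows, 26.1%, against 4.6% of all 32851 promoters. The ETS motif CCGGAAG was in 23.2% of the members' windows against 8.86% of all, and the YY1 motif AANATGGC in 23.2% against 6.05%. The SP1 motif GGGCGG was in 37.7% against 35.66%. The members' windows are those of tested genes alone, whereas all promoters include those of genes without enough counts to be tested. These sets thus differ in expression too, and the part of this was not tested. Counted by gene, 17 of the 64 members had an NRF1 match, 14 of the 56 that rose with Au_TCPP against Control and 3 of the 8 others, and no NRF1 match overlapped a match of another motif. A match is a description of the sequence and not of binding. The members with matches included the complex I membrane-arm subunit Ndufb4, the succinate dehydrogenase flavoprotein Sdha, Cox6a1 and the peripheral stalk subunit Atp5h, of which Sdha fell and the other 3 rose with Au_TCPP on the TMM scale. Their sequences upstream of both the RefSeq start and the GENCODE gene, within 250 bases of the former and all on the minus strand, span chr16:37654454-37654618, chr13:74350281-74350490, chr5:115348982-115349208 and chr11:115419963-115420169 in that order, and are shown 5′ to 3′ with NRF1 matches in capitals.
Ndufb4: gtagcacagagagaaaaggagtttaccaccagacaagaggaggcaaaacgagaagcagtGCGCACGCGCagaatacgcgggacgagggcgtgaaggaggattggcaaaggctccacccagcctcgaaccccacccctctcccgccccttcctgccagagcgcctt
Sdha: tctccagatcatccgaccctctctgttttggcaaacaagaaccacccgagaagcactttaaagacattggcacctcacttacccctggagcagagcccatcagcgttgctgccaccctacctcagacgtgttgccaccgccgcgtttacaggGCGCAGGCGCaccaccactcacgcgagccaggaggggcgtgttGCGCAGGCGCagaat
Cox6a1: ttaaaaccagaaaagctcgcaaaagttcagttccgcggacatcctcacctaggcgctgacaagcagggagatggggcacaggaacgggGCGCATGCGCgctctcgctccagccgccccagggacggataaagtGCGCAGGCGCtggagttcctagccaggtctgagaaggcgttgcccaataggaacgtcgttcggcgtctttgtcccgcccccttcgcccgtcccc
Atp5h: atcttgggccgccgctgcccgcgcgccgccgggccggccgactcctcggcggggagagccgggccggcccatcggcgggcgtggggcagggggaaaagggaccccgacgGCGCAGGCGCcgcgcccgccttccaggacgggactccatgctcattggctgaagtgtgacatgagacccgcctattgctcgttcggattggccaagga
These stretches hold 1, 2, 2 and 1 matches, which begin 191 bases before the start for Ndufb4, 98 and 55 for Sdha, 162 and 117 for Cox6a1 and 141 for Atp5h. The full 250 bases before the RefSeq start hold 3 matches for Ndufb4 and 3 for Sdha, of which 85 and 40 bases are not shown. For Cox6a1 and Atp5h the full 250 bases hold no further match. On the TMM scale Ndufb4 was at 0.48 ± 0.13 (adjusted p = 0.00353), Cox6a1 at 0.64 ± 0.13 (adjusted p = 0.000419), Atp5h at 0.97 ± 0.09 (adjusted p = 3.17e-07) and Sdha at -0.44 ± 0.08 (adjusted p = 0.000317) with Au_TCPP against Control. Over all matched members, 14 of the 17 with an NRF1 match rose, against 56 of all 64. The other 3 of the 17 were Sdha, Sdhd and Uqcrc1, of which Sdha alone fell. A link between the motif and direction was not tested. Ndufb4 and Cox6a1 were not called with library totals alone (0.07 and 0.21, adjusted p = 0.691 and 0.105).

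Au_TCPP against Control asks how cells given the material with gold differed from untreated cells. Of the 79 members tested, 66 rose and 2 fell at an edgeR adjusted p under 0.05 over all genes, while with library totals alone 35 rose and 11 fell. Their median log2 fold change was 0.64 against -0.01 for all genes tested, and 0.22 against -0.43 with library totals alone. Of all genes, 34.4% were called higher and 34.7% lower, and with library totals alone 18.9% and 51%. The 3 Au_TCPP libraries lay above the 3 Control libraries in CPM for 64 members and below them for 3, against 35.3% and 36.6% of all genes. The members' median in each Au_TCPP library relative to the Control mean was 0.65, 0.72 and 0.52 (log2), and in each Cu_TCPP library -0.002, 0.11 and 0.04. All 3 Au_TCPP libraries therefore lay above the Cu_TCPP libraries on this scale. All risen members but Sdhb belonged to complexes I, III, IV and V.

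**Figure D1:**
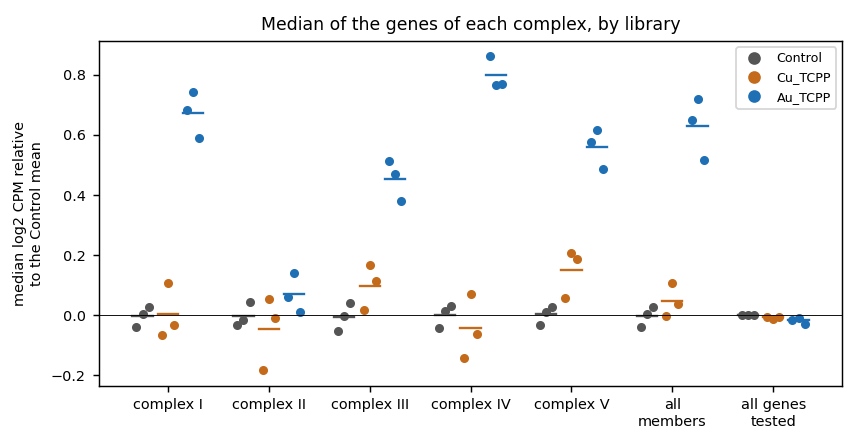
Median, over the tested genes of each complex, of log2 CPM relative to the mean of the Control libraries (y axis, TMM scale). Each point is 1 library and each line the mean of 3 libraries, coloured by group, with all members and all genes tested at the right. The Au_TCPP points of all members sit at 0.65, 0.72 and 0.52, above the Control and Cu_TCPP points, whereas with library totals alone the median log2 fold change of members against Control is 0.22.

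In complex I, which oxidises NADH, 31 of 37 members tested rose with Au_TCPP against Control and the median was 0.69 (with library totals alone 18 rose and 5 fell). Of the 7 nuclear-encoded subunits of the catalytic core, which together carry the flavin and the iron-sulfur clusters, 2 rose, with a median of 0.07, and of the 30 other subunits 29 rose, with a median of 0.76. On the scale of library totals these medians were -0.34 and 0.35, and 5 of the 7 core subunits fell. The difference between these sets was not tested. Ndufs1, the largest core subunit, read 109, 103 and 106 CPM in the Control libraries and 102, 92.2 and 121 CPM in the Au_TCPP libraries, which overlap (log2 fold change -0.01 ± 0.10, SE, n = 3 per group, edgeR adjusted p = 0.94). Ndufv1, which binds NADH and flavin, read 118, 126 and 133 CPM in Control and 129, 111 and 115 CPM in Au_TCPP, again overlapping (-0.09 ± 0.09, adjusted p = 0.387). Both fell with library totals alone, at -0.44 and -0.51 (adjusted p = 0.000252 and 7.97e-05). The core subunits that rose were Ndufs3 at 0.67 and Ndufv2 at 0.52, and with library totals alone Ndufv2 was at 0.10 (adjusted p = 0.313).

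Among the accessory subunits, Ndufa5 of the matrix arm read 20.8, 20.7 and 21.4 CPM in Control, 28.01, 30.6 and 27.1 CPM in Cu_TCPP and 45.3, 47.5 and 39.8 CPM in Au_TCPP, so that the 3 groups did not overlap and rose in that order. Against Control its log2 fold change was 1.08 ± 0.10 (adjusted p = 1.76e-07) with Au_TCPP, and 0.66 with library totals alone. Ndufab1, the mitochondrial acyl carrier protein, read 35.1, 36.8 and 36.2 CPM in Control and 70.7, 63.6 and 69.3 CPM in Au_TCPP (0.91 ± 0.09, adjusted p = 2.7e-07). Ndufc2, a subunit of the membrane arm, read 42.8, 42.5 and 45.6 CPM and 83.6, 81.99 and 86.4 CPM in these groups (0.95 ± 0.08, adjusted p = 6.64e-08), which makes it 1.93-fold higher with libraries of each group close together. Ndufb9, the most abundant complex I transcript per length, rose from 151, 159 and 175 CPM to 301, 309 and 281 CPM (0.87 ± 0.09, adjusted p = 4.46e-07). Ndufa4, first assigned to complex I and later found in complex IV, rose from 135, 135 and 139 CPM to 237, 213 and 229 CPM (0.73 ± 0.08, adjusted p = 1.21e-06). The call of each of these 5 was the same with library totals alone, where Ndufa4 was at 0.30. The largest change of complex I was that of Ndufa12, an accessory subunit of the matrix arm, and it rested on widely spread libraries: 11.4, 12.4 and 6.85 CPM in Control and 38.5, 59.2 and 19.1 CPM in Au_TCPP (1.93 ± 0.39, adjusted p = 0.002). Without Au_TCPP replicate 2, the highest of them, it was 1.47 (adjusted p = 0.00404). Ndufs6 and Ndufv3, both chosen after their values were seen, lost their calls without single libraries, and Ndufv3, at 0.61 with all libraries, was at 0.31 (adjusted p = 0.0506) without Au_TCPP replicate 2 and was also not called without Control replicate 1 (adjusted p = 0.0744). Ndufs6 went from 0.60 (adjusted p = 0.049) to between 0.51 and 0.67 and lost its call without any 1 of the Control or Au_TCPP libraries. Neither was called with library totals alone, Ndufv3 at 0.21 and Ndufs6 at 0.19 (adjusted p = 0.439 and 0.532).

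Complex II, succinate dehydrogenase, links the citric acid cycle to the chain, and its 4 subunits did not move together. Sdha, the flavoprotein that oxidises succinate and whose upstream sequence is shown above (chr13:74322254-74350280 on build mm10, minus strand), read 221, 222 and 235 CPM in Control, 172, 203 and 184 CPM in Cu_TCPP and 165, 164 and 172 CPM in Au_TCPP. Both treated groups lay below every Control library, and Sdha fell by 0.44 ± 0.08 on the log2 scale with Au_TCPP (SE, n = 3 per group, edgeR adjusted p = 0.000317) and by 0.86 with library totals alone. Sdhb, the iron-sulfur subunit, read 106, 110.3 and 122 CPM in Control and 133, 138 and 132 CPM in Au_TCPP (0.25 ± 0.10, adjusted p = 0.0279), but with library totals alone it was at -0.17 (adjusted p = 0.135). Its call was also lost without Control replicate 1 or 2 or Au_TCPP replicate 1 or 3, where it was as low as 0.17 (adjusted p up to 0.199). The membrane anchor Sdhc read 129.9, 131 and 133 CPM in Control and 140.2, 130.1 and 131 CPM in Au_TCPP (0.03 ± 0.08, adjusted p = 0.761), and with library totals alone it fell by 0.39 (adjusted p = 0.000213). The other anchor, Sdhd, read 100.4, 103 and 105 CPM and 105, 135 and 105 CPM, with Au_TCPP replicate 2 standing above the rest (0.16 ± 0.10, adjusted p = 0.182). Sdha was thus the only subunit of complex II to change in the same direction, with an adjusted p under 0.05, on both scales in Au_TCPP against Control.

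In complex III, which passes electrons from ubiquinol to cytochrome c, 6 of 8 members rose, and the median was 0.46 (with library totals alone 3 rose and 1 fell). Uqcrb, a small subunit near the ubiquinone site (chr13:66900617-66905378 on build mm10), read 37.5, 32.5 and 33.7 CPM in Control. It read 47.9, 42.9 and 39.3 CPM in Cu_TCPP and 78.5, 83.01 and 87.2 CPM in Au_TCPP. Its 3 groups did not overlap, and with Au_TCPP it was 2.399-fold higher than in Control (log2 fold change 1.26 ± 0.10, SE, n = 3 per group, edgeR adjusted p = 3.16e-08), or 0.84 with library totals alone. The hinge protein Uqcrh, which helps cytochrome c dock, rose from 85.2, 89.9 and 95.2 CPM to 166, 184 and 154 CPM (0.90 ± 0.09, adjusted p = 5.08e-07), and 0.48 with library totals alone. Uqcrq, which binds next to cytochrome b, rose from 71.5, 74.2 and 77.03 CPM to 117, 138 and 129 CPM (0.78 ± 0.14, adjusted p = 0.000174). The Rieske iron-sulfur subunit Uqcrfs1, which takes the electron from ubiquinol, read 125, 128 and 135 CPM in Control and 155, 162 and 152 CPM in Au_TCPP (0.27 ± 0.08, adjusted p = 0.00547). Its direction turned with library totals alone (-0.15, adjusted p = 0.104) and with offsets for gene length (-0.07, adjusted p = 0.354). Its call was lost without Control replicate 1 or 2 (adjusted p up to 0.0701, lowest value 0.21). The large core protein Uqcrc1 read 357, 374 and 376 CPM in Control and 355, 286 and 344 CPM in Au_TCPP, all below the Control libraries but without passing the test (-0.17 ± 0.10, adjusted p = 0.13), and with library totals alone it fell by 0.60 (adjusted p = 7.46e-06). Uqcr10, the most abundant complex III transcript per length, rose from 68.1, 78.2 and 72.98 CPM to 103, 111 and 92.1 CPM (0.48 ± 0.09, adjusted p = 0.000241), and was not called with offsets for gene length (-0.04) or with library totals alone (0.07, adjusted p = 0.58).

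Complex IV, cytochrome c oxidase, had the highest median of the 5 complexes in Au_TCPP against Control, 0.85, and 12 of its 13 members tested rose (with library totals alone 8 rose, with a median of 0.42). Cox4i1 rose from 311, 328 and 329.6 CPM in Control to 614, 537 and 599 CPM in Au_TCPP (log2 fold change 0.85 ± 0.10, SE, n = 3 per group, edgeR adjusted p = 1.63e-06), and was at 0.43 with library totals alone. Cox7c, one of the small subunits around the catalytic core, rose from 96.9, 99.5 and 93.9 CPM to 190.4, 191 and 204 CPM (1.01 ± 0.08, adjusted p = 3.25e-08). Cox5a, which faces the matrix, rose from 61.9, 60.96 and 59.9 CPM to 121, 96.8 and 111 CPM (0.85 ± 0.09, adjusted p = 7.31e-07), and Cox6c from 180.3, 183 and 186 CPM to 337, 312 and 369 CPM (0.89 ± 0.09, adjusted p = 3.45e-07). Cox8a, the ubiquitous isoform of its position, rose from 229.6, 251 and 265 CPM to 451, 449.6 and 423 CPM (0.83 ± 0.11, adjusted p = 1.25e-05). For these 5 subunits no Au_TCPP library overlapped a Control library, and each was called with library totals alone, at 0.59 for Cox7c and 0.41 for Cox8a. Smaller changes were those of Cox6a1 (0.64 ± 0.13, adjusted p = 0.000419), Cox6b1 (0.56 ± 0.08, adjusted p = 3.24e-05), Cox7a2 (0.48 ± 0.08, adjusted p = 8.19e-05) and Cox7b (0.38 ± 0.08, adjusted p = 0.000451). These 4 were not called with library totals alone, at 0.21, 0.14, 0.06 and -0.03. Of the isoforms found mainly in heart and muscle, Cox7a1 was low, at 0.889, 0.809 and 1.32 CPM in Control and 2.91, 2.11 and 2.21 CPM in Au_TCPP (1.26 ± 0.33, adjusted p = 0.00387), without overlap. Cox6a2 (chr7:128205435-128206387 on build mm10) had 6, 12 and 14 counts in the Control libraries, 4, 1 and 8 counts in the Cu_TCPP libraries and 8, 133 and 8 counts in the Au_TCPP libraries, so 1 library held most of its reads. Its log2 fold change of 2.64 ± 1.09 (adjusted p = 0.057) became 0.05 (adjusted p = 0.948) without Au_TCPP replicate 2, and it passed without Au_TCPP replicate 1 or 3, at up to 3.11. Among 5 muscle markers only Tnnt2 was tested, at 109, 117 and 119 CPM in Control and 259, 152 and 234 CPM in Au_TCPP, and its replicate 2 was the lowest of the 3.

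In complex V, 16 of 17 members tested rose and 1 fell with Au_TCPP against Control, with a median of 0.58, and with library totals alone 6 rose and 3 fell. In the catalytic F1 head, Atp5b read 1832, 1917 and 1956 CPM in Control and 2399, 1949.8 and 2453 CPM in Au_TCPP (0.25 ± 0.10, adjusted p = 0.0304), and its replicate 2 lay within the Control range. Atp5b fell by 0.17 with library totals alone (adjusted p = 0.0484). Its call was lost without any library except Au_TCPP replicate 2, where it reached 0.33. Atp5e, the small epsilon subunit of the central stalk, rose from 99.8, 105 and 101 CPM to 186, 201 and 176 CPM (0.88 ± 0.08, adjusted p = 2.63e-07), and was at 0.46 with library totals alone. The 4 subunits of the peripheral stalk, which holds the head still, had a median of 0.66, and with library totals alone 0.24, with 4 and 2 risen. Atp5h among them rose from 82.8, 89.3 and 89.2 CPM to 183, 159 and 171 CPM (0.97 ± 0.09, adjusted p = 3.17e-07). Atp5mpl, a small proteolipid of the membrane part, rose from 86.8, 80.9 and 78.1 CPM to 146, 155 and 159 CPM (0.90 ± 0.08, adjusted p = 2.38e-07). The genes Atp5g1, Atp5g2 and Atp5g3 encode the same mature c-ring protein, and their changes were 0.62 ± 0.14 (adjusted p = 0.00101), 0.42 ± 0.09 (adjusted p = 0.00106) and 0.37 ± 0.08 (adjusted p = 0.000723). They were at 0.20, -0.01 and -0.06 with library totals alone (adjusted p = 0.267, 0.913 and 0.492). Per length, Atp5g2 was the highest of them in Control at 110.1 ± 5.03 FPKM and Atp5g1 the lowest at 8.98 ± 0.508 FPKM. Atp5s, a coupling factor that is not a core part of the enzyme, read 10.3, 9.98 and 8.39 CPM and 6.27, 7.86 and 7.34 CPM and fell by 0.42 ± 0.16 (adjusted p = 0.0287). This call was lost without Control replicate 1 or 2 or Au_TCPP replicate 1 (adjusted p up to 0.0832, at -0.36 or lower).

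**Figure D2:**
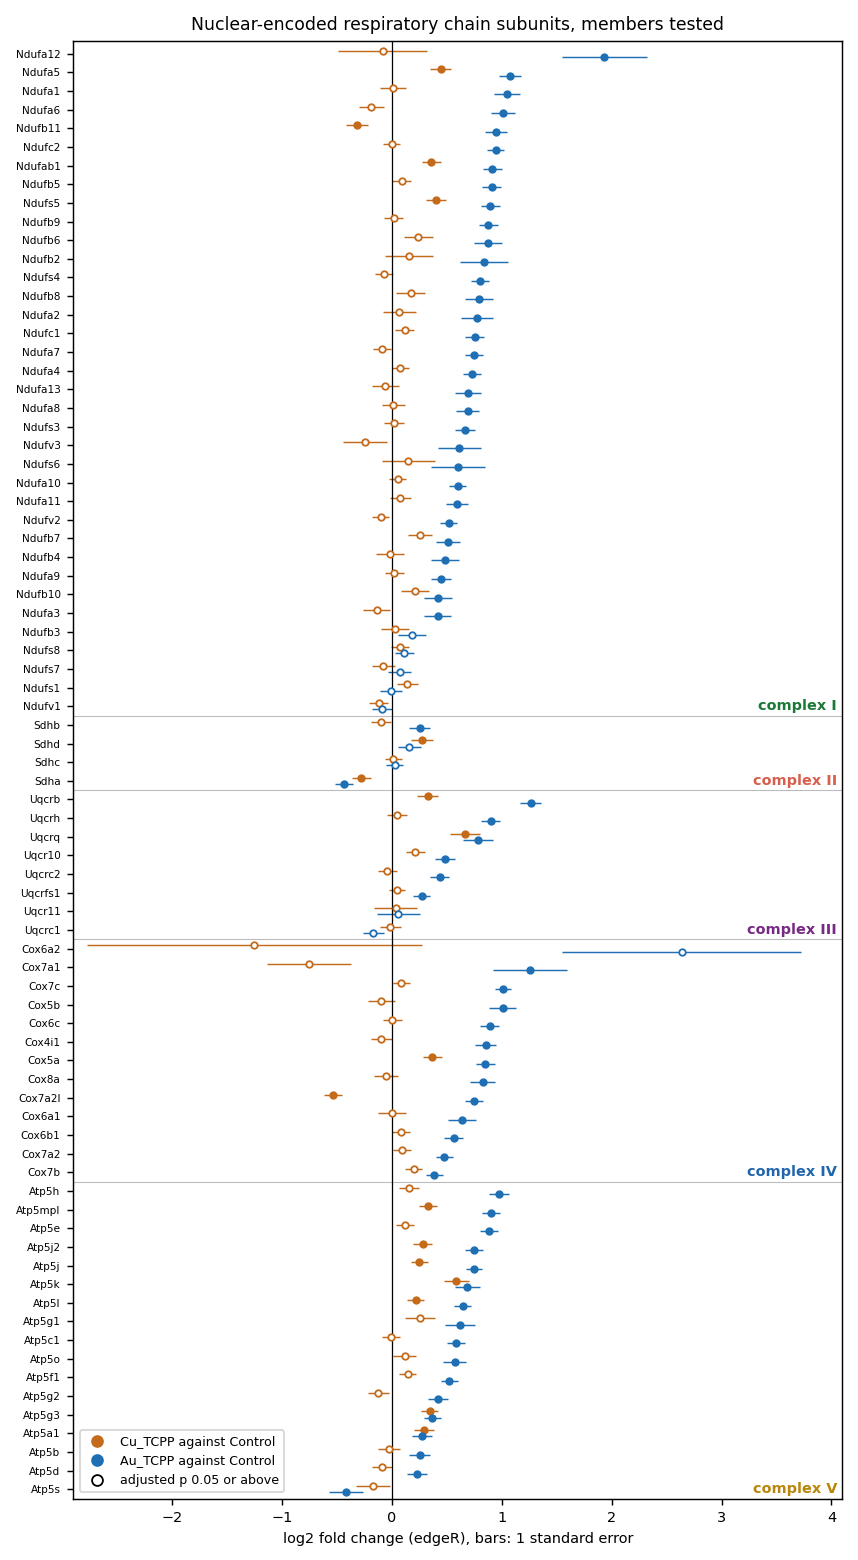
Log2 fold change against Control (x axis, edgeR with TMM factors) of the members tested, 1 left out, by complex and sorted within each by the Au_TCPP value. Orange marks Cu_TCPP and blue Au_TCPP, bars are 1 standard error, and open points have an adjusted p of 0.05 or above. The blue points lie to the right of 0 for most members of complexes I, III, IV and V (with library totals alone 35 members rose and 11 fell), and the orange points lie between -1.25 and 0.66, most of them open.

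The count of risen members in Au_TCPP against Control depended on the scale. With library totals alone, 35 of the 66 risen members were still called higher and 2, Atp5b and Atp5d, were called lower. The lower calls there also held Ndufs1, Ndufs7, Ndufs8, Ndufv1, Sdhc and Uqcrc1. Gene length also moved with the result. The members tested are short, with a median gene length of 1675 nt (419 to 8086) against 3861 nt for all genes tested, and short genes as a whole were higher in Au_TCPP than in Control. Among genes of up to 1000 nt, 50.8% of all genes rose, with a median of 0.67, and 16 of 20 members, with a median of 0.73, so in this class the medians were close. From 1000 to 2000 nt these were 45.4% and 0.36 for all genes against 27 of 29 members and 0.75. From 2000 to 4000 nt they were 38.3% and 0.10 against 15 of 19 and 0.52, and above 4000 nt 25.8% and -0.27 against 8 of 11 and 0.52. The members' median therefore varied less over the length classes than that of all genes, on the TMM scale. In a fit with offsets for the trend on gene length, 47 members rose and 5 fell, with a median of 0.36 against 0.01 for all genes, of which 33.9% were higher and 32.2% lower. Of the 66 risen members 46 kept their call there, and Ndufb3, Ndufs8 and Ndufv1 joined Sdha and Atp5s among the lower calls. Uqcrb was at 0.82 in that fit, Cox4i1 at 0.54, Ndufab1 at 1.16, Atp5h at 0.65 and Sdha at -0.39, each still called. The part of RNA quality in the length trend was not tested.

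**Figure D3:**
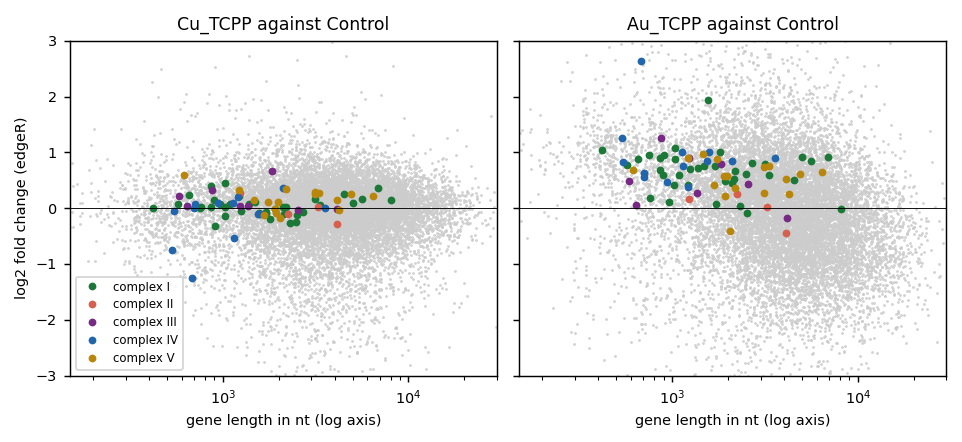
Log2 fold change (y axis, edgeR, TMM scale) against gene length in nt (x axis, log scale) for all genes tested (grey) and for the members by complex (coloured), with Cu_TCPP against Control on the left and Au_TCPP against Control on the right; points beyond the axes are not drawn. On the right the grey cloud falls with length, from a median of 0.67 up to 1000 nt to -0.27 above 4000 nt. The members' medians in the length classes stay between 0.52 and 0.75, while single members run from -0.44 to 2.64.

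Cu_TCPP against Control asks the same of the material without gold, and it shares its Control libraries with the comparison above. Of the 79 members tested, 14 rose and 4 fell, with a median log2 fold change of 0.05 against -0.01 for all genes tested, and 10 rose and 4 fell with library totals alone. Of all genes 19.2% were called higher and 21.2% lower, 40.4% in all, so the share of higher calls among the members was near the background and that of lower calls was below it. On the scale of library totals 16.3% and 23% of all genes were called. Offsets for gene length gave 15 risen and 4 fallen members, against 20.1% and 21.5% of all genes. The Cu_TCPP libraries lay above the Control libraries for 21 members and below them for 9, against 29.4% and 30% of all genes. By complex, 3 of 37 members of complex I rose and 2 fell, 1 of 4 rose and 1 fell in complex II, 2 of 8 rose in complex III, 1 of 13 rose and 1 fell in complex IV, and 7 of 17 rose in complex V. The members that rose were Ndufa5, Ndufab1 and Ndufs5 of complex I, Sdhd, Uqcrb and Uqcrq, Cox5a, and Atp5a1, Atp5g3, Atp5j, Atp5j2, Atp5k, Atp5l and Atp5mpl of ATP synthase, all but Sdhd of which also rose with Au_TCPP on the TMM scale.

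In ATP synthase, Atp5k, a small subunit where dimers of the enzyme meet, read 22.6, 21.8 and 23.8 CPM in Control and 33.7, 35.3 and 33.6 CPM in Cu_TCPP without overlap (log2 fold change 0.59 ± 0.11, SE, n = 3 per group, edgeR adjusted p = 0.000832). Atp5g3 of the c-ring rose from 177, 183 and 184 CPM to 226, 232 and 231 CPM (0.34 ± 0.08, adjusted p = 0.00284). Atp5g2 of the same ring was at -0.12 (adjusted p = 0.311) and Atp5g1 at 0.26 (adjusted p = 0.147). Atp5mpl rose from 86.8, 80.9 and 78.1 CPM to 108, 94.5 and 106 CPM (0.33 ± 0.08, adjusted p = 0.00605), and Atp5b did not pass (-0.03 ± 0.10, adjusted p = 0.852). In complex III, Uqcrq rose from 71.5, 74.2 and 77.03 CPM to 98.7, 152 and 102 CPM (0.66 ± 0.14, adjusted p = 0.00174), where replicate 2 was far above the other 2. Without that library Uqcrq was at 0.45 (adjusted p = 0.00282). Uqcrb was at 0.33 ± 0.10 (adjusted p = 0.0138) and lost its call without Control replicate 2 or Cu_TCPP replicate 1 (adjusted p up to 0.0661, lowest value 0.26). In complex I, Ndufa5 was at 0.45 ± 0.10 (adjusted p = 0.00215), Ndufs5 at 0.40 ± 0.09 (adjusted p = 0.00225) and Ndufab1 at 0.36 ± 0.09 (adjusted p = 0.0039), and these 3 kept their calls whichever library was left out. In complex IV, Cox5a rose from 61.9, 60.96 and 59.9 CPM to 75.8, 79.7 and 80.4 CPM (0.37 ± 0.09, adjusted p = 0.00399), while Cox4i1 read 277, 339 and 289.8 CPM and did not pass (-0.10 ± 0.09, adjusted p = 0.437).

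The members that fell with Cu_TCPP included Cox7a2l, Ndufb11 and Sdha. Sdha fell by 0.28 ± 0.08 (adjusted p = 0.0164), and its call was lost without Control replicate 2 or 3 or Cu_TCPP replicate 1 or 3 (between -0.33 and -0.22 over the 9 libraries left out in turn, adjusted p up to 0.0993). Sdhd, the anchor of complex II that rose, read 100.4, 103 and 105 CPM and 114, 134 and 126 CPM in Cu_TCPP (0.28 ± 0.10, adjusted p = 0.0451). It was not called with library totals alone (0.23, adjusted p = 0.146), and lost its call without any Control library or Cu_TCPP replicate 2 or 3 (adjusted p up to 0.129, lowest value 0.23). Of the 18 members called in Cu_TCPP against Control, 9 kept their call whichever of the 9 libraries was left out, against 59 of 68 in Au_TCPP against Control.

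Cox7a2l and Ndufb11 fell with Cu_TCPP and rose with Au_TCPP against the same Control libraries. Cox7a2l (chr17:83501919-83514333 on build mm10), a relative of Cox7a2 that joins complexes III and IV into supercomplexes, read 160.3, 159.6 and 166 CPM in Control, 107, 115 and 113 CPM in Cu_TCPP and, in Au_TCPP, 259.7, 290.2 and 267 CPM. The Cu_TCPP libraries lay below and the Au_TCPP libraries above every Control library. The log2 fold changes were -0.53 ± 0.08 (adjusted p = 0.000136) with Cu_TCPP and 0.75 ± 0.08 (adjusted p = 1.03e-06) with Au_TCPP, and -0.58 and 0.33 with library totals alone, both called. Between the materials the difference was 1.28 ± 0.08 (adjusted p = 5.43e-09), a 2.43-fold higher level in Au_TCPP, and no call of Cox7a2l was lost in any of the 21 alternative analyses. Its relatives Cox7a2 and Cox7a1 did not pass with Cu_TCPP, at 0.09 ± 0.08 (adjusted p = 0.382) and -0.76 ± 0.38 (adjusted p = 0.132). Ndufb11 (chrX:20615326-20617619 on build mm10), a subunit of the membrane arm of complex I, read 59.5, 66.3 and 69.3 CPM in Control, 46.8, 58.3 and 51.1 CPM in Cu_TCPP and 124, 136 and 116 CPM in Au_TCPP, again with no overlap. It was at -0.32 ± 0.10 (adjusted p = 0.0187) with Cu_TCPP and at 0.95 ± 0.10 (adjusted p = 7.85e-07) with Au_TCPP. The former call was lost without Control replicate 2 or 3 or Cu_TCPP replicate 1 or 3 (up to -0.24, adjusted p up to 0.107). Ndufb11 overlaps Rbm10 on the opposite strand, which had 10223 reads over the 9 libraries against 11392 of Ndufb11. Strand use in the counting is not stated in the labels.

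**Figure D4:**
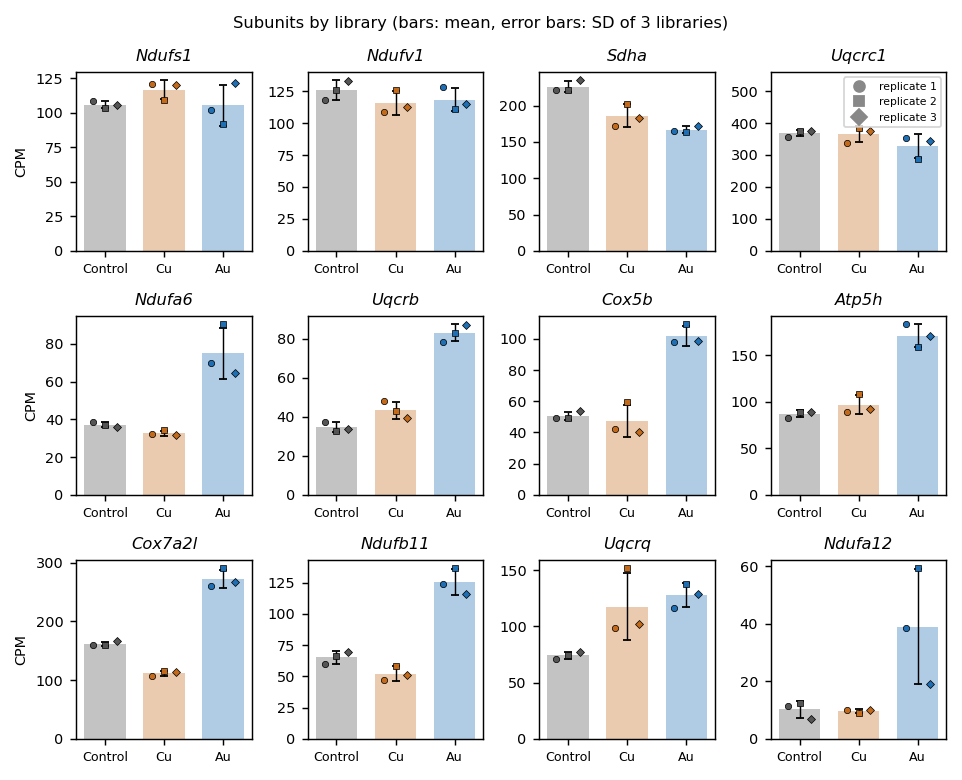
CPM (y axes from 0, TMM scale) of 12 subunits in Control, Cu_TCPP (Cu) and Au_TCPP (Au). Points are libraries with a marker per replicate number, bars the mean and error bars the SD of 3 libraries. Ndufs1 and Ndufv1 overlap between Control and Au_TCPP and Uqcrc1 lies slightly lower in Au_TCPP (all 3 fall with library totals alone), Cox7a2l and Ndufb11 fall in Cu_TCPP and rise in Au_TCPP, and replicate 2 stands apart for Uqcrq in Cu_TCPP at 152 and for Ndufa12 in Au_TCPP at 59.2.

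Au_TCPP against Cu_TCPP compares the material with gold to the one without, at doses that are not given, so matched doses cannot be claimed. Of the 79 members tested, 62 rose, with a median of 0.54 against 0.04 for all genes tested, while with library totals alone 29 rose and 10 fell with a median of 0.16 against -0.33. On the TMM scale 0 fell (edgeR, 0 also at an unadjusted p under 0.05, and 1, Sdha, with DESeq2 and with limma on FPKM). Of all genes 34.6% were called higher and 31.3% lower, and with library totals alone 20.3% and 46.9%. By complex, 30 of 37, 1 of 4, 5 of 8, 13 of 13 and 13 of 17 rose, and with library totals alone 15, 0, 2, 8 and 4. Of the 62 called members, 51 kept their call whichever of the 9 libraries was left out. In complex IV, Cox7b (0.19) lost its call without any 1 of the 9 (edgeR adjusted p = 0.082 to 0.24). Cox6a2 lost its call without Cu_TCPP replicate 1 or 2 or Au_TCPP replicate 2 (edgeR adjusted p up to 0.105). The Au_TCPP libraries lay above the Cu_TCPP libraries for 59 members and below them for 1, against 34.4% and 32.6% of all genes. Ndufa6, an accessory subunit that binds the acyl carrier protein, read 32.04, 34.2 and 31.7 CPM in Cu_TCPP and 69.8, 90.4 and 64.8 CPM in Au_TCPP (log2 fold change 1.20 ± 0.11, SE, n = 3 per group, edgeR adjusted p = 3.03e-07), and 0.84 with library totals alone. Uqcrb was 0.93 ± 0.09 (adjusted p = 6.52e-07) higher, Cox4i1 0.95 ± 0.10 (adjusted p = 5.98e-07), Atp5h 0.82 ± 0.09 (adjusted p = 1.96e-06) and Ndufc2 0.95 ± 0.08 (adjusted p = 6.89e-08) on the log2 scale, and these 4 were called on both scales. Several ATP synthase and complex III members that had risen with both materials were not separated here: Atp5k was at 0.10 ± 0.11 (adjusted p = 0.45), Atp5g3 at 0.02 ± 0.08 (adjusted p = 0.812), Atp5a1 at -0.02 ± 0.09 (adjusted p = 0.857) and Uqcrq at 0.12 ± 0.14 (adjusted p = 0.453). Atp5g3 and Atp5a1 were lower in Au_TCPP with library totals alone, by 0.35 and 0.40 (adjusted p = 0.000565 and 0.000186). Without Cu_TCPP replicate 2 Uqcrq passed at 0.30 (adjusted p = 0.0131). In complex II, Sdha was at -0.16 ± 0.08 (adjusted p = 0.108), Sdhb at 0.35 ± 0.10 (adjusted p = 0.00445), Sdhc at 0.02 ± 0.08 (adjusted p = 0.873) and Sdhd at -0.12 ± 0.10 (adjusted p = 0.338). With library totals alone 0 of the 4 rose (edgeR, adjusted p under 0.05) and 3 fell, with Sdha at -0.53, Sdhc at -0.36 and Sdhd at -0.48 (adjusted p = 2.62e-05, 0.000525 and 0.00256), and Sdhb was not called (-0.02, adjusted p = 0.881). Sdhb lost its call without Cu_TCPP replicate 1 (0.22, adjusted p = 0.0647). Sdha was called lower without Cu_TCPP replicate 1 or Au_TCPP replicate 2 or 3 (down to -0.26), Sdhd without Au_TCPP replicate 2 (-0.28) and Ndufs1 of complex I without Au_TCPP replicate 3 (-0.31). With offsets for gene length 45 members rose and 8 fell, with a median of 0.30, against 35.1% and 29% of all genes.

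**Figure D5:**
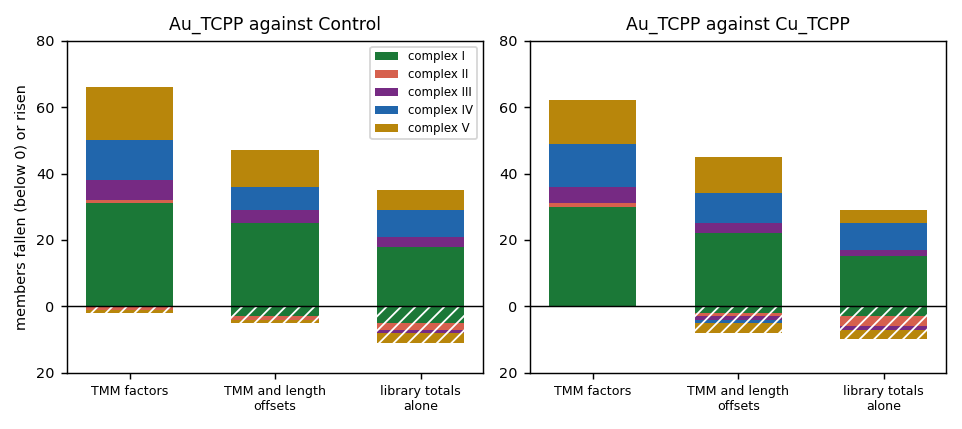
Number of members risen (above 0) and fallen (below 0, hatched) at an edgeR adjusted p under 0.05 of the 79 tested, stacked by complex, with TMM factors, with TMM factors and offsets for gene length, and with library totals alone. For Au_TCPP against Control (left) the risen count goes from 66 to 47 and 35 and the fallen count from 2 to 5 and 11, and for Au_TCPP against Cu_TCPP (right) the risen count goes from 62 to 45 and 29.

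Libraries of 1 group differed in the members' level. Cu_TCPP replicate 2 was the highest of its 3 libraries for 48 of the 79 members, 60.8%, against 38.5% of all genes tested. Control replicate 3 was the highest for 49 members, 62%, against 35% of all genes. In Au_TCPP, replicate 2 was the highest for 42 members, 53.2%, against 38% of all genes. Replicate 3 of Au_TCPP was the lowest for 44 members, and the share of all genes for this was not computed. The members' median in Cu_TCPP replicate 2 relative to the other 2 libraries of its group was 0.09 (log2). Ndufs6, an accessory subunit that holds zinc, read 23.1, 48.6 and 25.02 CPM in the Cu_TCPP libraries, and Uqcr11, the smallest subunit of complex III, 44.6, 82.9 and 49.2 CPM, both with replicate 2 far above the other 2. Over the members, the highest library of a group was at the median 1.08 times the lowest in Control, 1.14 times in Cu_TCPP and 1.18 times in Au_TCPP, against 1.12, 1.18 and 1.31 times over all genes tested. Cox6a2 and Ndufa12 in Au_TCPP stood apart at 16.2 and 3.10 times. Without Cu_TCPP replicate 2, 12 members rose and 5 fell in Cu_TCPP against Control, the added one being Cox5b, a zinc-binding subunit of complex IV, at -0.28 (adjusted p = 0.0353). Without Au_TCPP replicate 2, 63 members rose and 2 fell in Au_TCPP against Control, and 20 rose with Cu_TCPP. Leaving out Control replicate 2 lowered the risen count with Cu_TCPP to 9, and 1 of the 4 fallen members, Cox7a2l, was still called without Control replicate 2 or 3 or Cu_TCPP replicate 1 or 3.

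Genes that help to build the complexes moved in both directions. The shares of all genes tested called higher and lower were 19.2% and 21.2% with Cu_TCPP and 34.4% and 34.7% with Au_TCPP. With library totals alone they were 16.3% and 23% with Cu_TCPP and 18.9% and 51% with Au_TCPP. Of 16 complex I assembly factors tested, 8 rose and 1 fell with Cu_TCPP, and 7 rose and 3 fell with Au_TCPP, where library totals alone gave 1 and 6. Ecsit, which helps assemble the membrane arm, read 17.2, 17.8 and 16.9 CPM in Control and 28.4, 33.2 and 30.2 CPM in Cu_TCPP (0.82 ± 0.10, adjusted p = 2.46e-05). Acad9, another complex I assembly factor, read 52.3, 53.4 and 56.7 CPM in Control and 23.97, 31.2 and 25.6 CPM in Au_TCPP (-1.01 ± 0.10, adjusted p = 5.19e-07), opposite to the accessory subunits. Of 21 complex IV assembly factors tested, 6 rose and 3 fell with Cu_TCPP, and 8 rose and 5 fell with Au_TCPP (3 and 10 with library totals alone). Cox17, the copper chaperone of cytochrome oxidase, fell from 7.503, 7.93 and 7.62 CPM to 5.56, 5.998 and 5.82 CPM with Cu_TCPP (-0.41 ± 0.14, adjusted p = 0.0294) and rose to 11.9, 13.8 and 13.8 CPM with Au_TCPP (0.78 ± 0.13, adjusted p = 0.000115). Cox15, which makes haem A for the enzyme, fell to 35.03, 35.1 and 33.6 CPM in Au_TCPP from 66.1, 64.1 and 63.1 CPM in Control (-0.90 ± 0.08, adjusted p = 1.08e-07). The assembly factors of the other complexes were few: of 4 for complex II 1 rose and 1 fell with Au_TCPP, of 6 for complex III 3 and 3, and of 4 for complex V 3 rose. With library totals alone these became 0 and 2 for complex II, 1 and 3 for complex III and 1 and 1 for complex V. With Cu_TCPP these were 2 risen and 1 fallen for complex III and 1 and 1 for complex V, and the 4 of complex II did not pass. Atpif1, the inhibitor of ATP hydrolysis by complex V, read 53.2, 54.1 and 56.8 CPM in Control, 39.4, 53.4 and 40.05 CPM in Cu_TCPP and 80.7, 89.6 and 83.9 CPM in Au_TCPP (-0.30 ± 0.11, adjusted p = 0.037, and 0.63 ± 0.11, adjusted p = 0.000109). Its call with Au_TCPP was lost with library totals alone (0.21, adjusted p = 0.116).

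Of 7 electron carriers and their enzymes, 2 rose and 2 fell with Cu_TCPP, and 3 rose and 3 fell with Au_TCPP (1 and 4 with library totals alone). For this and the next 2 lists, the shares of all genes called higher and lower were 19.2% and 21.2% with Cu_TCPP. With Au_TCPP they were 34.4% and 34.7%, and 18.9% and 51% with library totals alone. Cycs, the cytochrome c that carries electrons from complex III to complex IV, read 48.4, 54.97 and 42.6 CPM in Control, 108, 119 and 105 CPM in Cu_TCPP and 165, 176 and 161 CPM in Au_TCPP. Its groups did not overlap, and its log2 fold changes, 1.19 ± 0.10 (adjusted p = 9.62e-07) and 1.78 ± 0.10 (adjusted p = 1.65e-09), were larger than those of every called subunit except Ndufa12 with Au_TCPP. Cyc1, the cytochrome of complex III that the symbol rule does not take in, was at 0.42 ± 0.10 (adjusted p = 0.00421) and 0.25 ± 0.10 (adjusted p = 0.0412), the latter -0.17 with library totals alone. Of 13 genes of ubiquinone synthesis, 4 rose and 2 fell with Cu_TCPP, and 4 and 5 with Au_TCPP. The library totals alone gave 2 and 2 with Cu_TCPP and 1 and 8 with Au_TCPP, where the median was -0.44. Coq10b, a ubiquinone-binding protein, rose from 8.56, 7.34 and 6.36 CPM to 17.5, 14.5 and 17.5 CPM and 54.3, 35.1 and 53.02 CPM (1.15 ± 0.17, adjusted p = 0.000133, and 2.68 ± 0.17, adjusted p = 6.05e-09). Of 12 regulators of mitochondrial biogenesis, 6 rose and 2 fell with Cu_TCPP, and 3 and 5 with Au_TCPP (2 and 9 with library totals alone). Pprc1, a relative of the coactivator PGC-1alpha, read 64.5, 59.7 and 54.1 CPM in Control, 160.1, 152 and 157 CPM in Cu_TCPP and 26.5, 36.8 and 31.3 CPM in Au_TCPP, so it was highest with Cu_TCPP and lowest with Au_TCPP (1.40 ± 0.10, adjusted p = 4.4e-07, and -0.91 ± 0.11, adjusted p = 3.42e-06). Ppargc1a, the coactivator itself, was low, at 2.95, 2.37 and 3.07 CPM in Control, and fell with both (-1.48 ± 0.30, adjusted p = 0.00123, and -1.01 ± 0.30, adjusted p = 0.00755). Polrmt, the mitochondrial RNA polymerase, fell to 6.498, 14.1 and 8.52 CPM from 37.1, 39 and 39.5 CPM with Au_TCPP (-1.99 ± 0.19, adjusted p = 5.44e-07).

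The subunits encoded in mitochondrial DNA, the partners of the members in complexes I, III, IV and V, were spread more widely. Of 12 tested, 6 rose and 3 fell with Au_TCPP against Control (2 and 4 with library totals alone), and with Cu_TCPP all 12 did not pass. Among all genes tested, 34.4% were called higher and 34.7% lower with Au_TCPP, and 18.9% and 51% with library totals alone. With Cu_TCPP these shares were 19.2% and 21.2%. The summed CPM of these mitochondrially encoded subunits was 11033 to 11391 in Control, 9972 to 13291 in Cu_TCPP and 13087 to 25923 in Au_TCPP. The most counted, mt-Co1 of complex IV, read 5597, 5663 and 5526 CPM in Control and 6677, 15372 and 8005 CPM in Au_TCPP (0.84 ± 0.29, adjusted p = 0.0305), with replicate 2 standing above the others, and was not called with library totals alone (0.44, adjusted p = 0.266). mt-Nd2 of complex I rose from 663, 647 and 619 CPM to 994, 1582 and 1034 CPM (0.90 ± 0.16, adjusted p = 0.000149), and mt-Nd3 fell from 5.22, 5.66 and 7.62 CPM to 0.672, 2.91 and 1.42 CPM (-1.87 ± 0.35, adjusted p = 0.000306). Au_TCPP replicate 2 was the highest library of its group for each of the 12, and the part of this in the members' values was not tested.

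Reads of members can be shared with other genes. By the deposited gene coordinates 37 members overlap another gene, 29 of them on the opposite strand. For 16 the overlapping gene had over 10% of the member's reads, so their values are uncertain. These include Ndufs1, within reach of Eef1b2, whose 113799 reads over the 9 libraries exceed the 16290 of Ndufs1, and Atp5j beside Gabpa, a subunit of GABP, with 16447 against 16663 reads. Ndufb2 overlaps Braf, with 5558 against 726 reads, and Cox4i1 overlaps Emc8, with 7553 against 57263 reads. The table also lists 13 rows that carry a member's kind of symbol but are not protein-coding, 12 of them processed pseudogenes. In the authors' deposited table of comparisons, 81 members have a value, with medians over the tested ones of 0.06, 0.63 and 0.48 for Cu_TCPP against Control, Au_TCPP against Control and Au_TCPP against Cu_TCPP. The authors' deposited table calls 20, 64 and 55 of them higher and 4, 1 and 0 lower.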

How the data were processed

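Polyadenylated RNA of 9 libraries was sequenced, and the authors deposited whole-number read counts per gene and FPKM values in 1 table, with gene symbols, biotypes and lengths, and log2 fold changes with p-values of their own comparisons, per the file headers. Per the submitters' processing notes, build mm10, Bowtie 0.12.9, Cufflinks 2.1.1 and HTSeq were used, while the sources used here do not give the HTSeq version, the strand setting or the annotation release. The deposited FPKM values carried a further factor of 0.875 to 1.238 per library over FPKM computed from the counts. It separated the groups, at 0.875 to 0.889 in Control, 0.925 to 0.944 in Cu_TCPP and 1.092 to 1.238 in Au_TCPP.

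The main test of the counts was made in R 4.3.3 with edgeR 4.0.16 (TMM factors, filterByExpr, robust quasi-likelihood fit of the 3 groups over the 9 libraries together), with Benjamini-Hochberg adjustment over 13915 genes and a threshold of 0.05. A gene called there with a positive log2 fold change is said to have risen and one with a negative to have fallen, and the standard error is the log2 fold change divided by the square root of F. edgeR's common dispersion came to 0.0112 (biological coefficient of variation 10.6%). Library medians used log2(CPM + 0.5). The fit was also tried on counts simulated from the means and common dispersion of these data, with 200 genes changed. Those counts held no trend on gene length and few changed genes, so they do not test the choice of scale. The alternatives, 21 in all, were DESeq2 1.42.0, library totals alone or RLE factors in place of TMM, a filter of at least 1 CPM in 3 libraries or none, a fit of only the 6 libraries compared, a replicate block, and offsets from a spline of 5 degrees of freedom on gene length with and without the block. Others were limma 3.58.1 on log2(FPKM + 1) and log2(FPKM + 0.1), protein-coding genes alone, and each library left out. Python 3.11.15 with pandas 2.3.3, numpy 2.4.6 and matplotlib 3.10.9 made the summaries and figures.

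The members and gene lists were chosen with earlier results of these data known. Named were, per comparison and complex, the 3 called members with the smallest p, the highest and lowest log2 fold change and the highest Control FPKM, and in every case Sdha to Sdhd, Uqcrfs1, members that share a subunit position and members called in opposite directions against Control. From each list of assembly factors, carriers, ubiquinone synthesis, regulators and mitochondrially encoded subunits, the called gene with the smallest p in each direction was eligible, with Cycs and Cyc1 in every case. Any other gene in the text was chosen after its values were seen. The comparisons against Control share the Control libraries, and no overlap between them was tested. Results of 1 member are not reported here, although the counts and medians over members include it.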

Additional observations from a re-analysis of the deposited data

Results flagged for a closer look

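Rows outside the members also carried signal. Ndufb1-ps, annotated as a lncRNA at a bidirectional promoter and so not taken in by the rule for protein-coding rows, read 21.6 ± 2.88 CPM in Control, 29.6 ± 1.67 CPM in Cu_TCPP and 52.0 ± 4.91 CPM in Au_TCPP (SD, n = 3). Its log2 fold change against Control was 0.46 with Cu_TCPP (edgeR adjusted p = 0.00491) and 1.27 with Au_TCPP (edgeR adjusted p = 1.48e-07), and with library totals alone 0.41 and 0.85. Ndufab1-ps, a processed pseudogene, read 7.91 ± 0.591 CPM in Control and 15.1 ± 3.29 CPM in Au_TCPP (SD, n = 3), a log2 fold change of 0.93 (edgeR adjusted p = 0.000274), and 0.50 with library totals alone. Reads of a processed pseudogene and of its parent gene, here Ndufab1, may not be told apart, and the part of such sharing was not tested.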

How the results depend on the processing

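For the genes named in a comparison, 735 of 797 alternative values in Au_TCPP against Control, 647 of 754 in Au_TCPP against Cu_TCPP and 653 of 691 in Cu_TCPP against Control kept their direction and their side of the threshold, and 12, 18 and 0 turned direction. Among the settings tried, scaling and gene length moved the counts of risen members most in both comparisons of Au_TCPP. In Cu_TCPP against Control the risen count was lowest without Control replicate 2 (9) and highest with the 6 libraries of the comparison alone (21).

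With library totals alone, Au_TCPP against Control gave 35 risen and 11 fallen members with a median of 0.22, and Au_TCPP against Cu_TCPP 29 and 10 with a median of 0.16. This setting drops the TMM factors and so moves all genes down together in Au_TCPP. Against Control it turned Atp5b (-0.17), Atp5g2 (-0.0098), Atp5g3 (-0.056), Cox7b (-0.034), Sdhb (-0.17), Sdhc (-0.39) and Uqcrfs1 (-0.15). Against Cu_TCPP it turned Atp5b (-0.099), Atp5g1 (-0.0022), Atp5g3 (-0.35), Cox7b (-0.18), Sdhb (-0.017), Sdhc (-0.36), Uqcr10 (-0.099) and Uqcrfs1 (-0.15).

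Offsets for gene length gave 5 fallen members and a median of 0.36 in Au_TCPP against Control, and 8 and 0.30 against Cu_TCPP, and with the replicate block added 8 and 0.36, and 9 and 0.30. Against Control they turned Uqcr10 (-0.039) and Uqcrfs1 (-0.075), and with the block Uqcr10 (-0.038), Uqcrfs1 (-0.074) and Sdhd (-0.22). Against Cu_TCPP they turned Atp5g3 (-0.21), Cox7a2 (-0.033), Cox7b (-0.19), Uqcr10 (-0.21) and Uqcrfs1 (-0.13), and with the block Atp5g3 (-0.21), Cox7a2 (-0.032), Cox7b (-0.19), Uqcr10 (-0.21) and Uqcrfs1 (-0.13). The cause was not tested.

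Cu_TCPP against Control had 2 fallen members with no filter on low counts, with limma on log2(FPKM + 1) and with limma on log2(FPKM + 0.1). Au_TCPP against Cu_TCPP had 1 fallen member, Sdha, with DESeq2 and with limma at either pseudocount, and a median of 0.44 with no filter, where more members are tested. Leaving out each library in turn gave 9 to 20 risen and 1 to 5 fallen members in Cu_TCPP against Control, 58 to 64 and 1 to 2 in Au_TCPP against Control, and 52 to 61 and 0 to 2 in Au_TCPP against Cu_TCPP. The cause was not tested.

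The labels do not state whether libraries with the same replicate number have anything else in common. Same-numbered libraries correlated at 0.0798, 0.0214 and 0.0444 between Cu_TCPP and Control, and at -0.0846, 0.0235 and -0.0235 between Au_TCPP and Control. Between Au_TCPP and Cu_TCPP they correlated at -0.0689, 0.0342 and -0.00234. In these comparisons 5 of 6, 1 of 6 and 2 of 6 samples correlated best with their own number. With the replicate block 13 members rose and 4 fell in Cu_TCPP against Control, 65 and 2 in Au_TCPP against Control, and 61 and 0 in Au_TCPP against Cu_TCPP. With 3 libraries per group, depth limits low members such as Cox6a2 and Cox7a1 and the 7 untested ones.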
